A study of Mus musculus with 14 samples.

Results

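The immunoglobulin kappa locus genes were taken as every gene in both count tables whose symbol starts with Igkv or Igkj or is Igkc, with symbols from the Ensembl gene ID in the GENCODE mouse annotation. A total of 166 genes met this rule, among 53706 gene IDs of the Foxp3-YFP-cre table and 55394 of the Foxp3-EGFP-cre-ERT2 table that matched the annotation. They comprise 160 variable genes (Igkv), 5 joining genes (Igkj) and the constant gene (Igkc). All lie on chromosome 6 of GRCm38 between bases 67555497 and 70726966, a span of 3171 kb, and all are listed in both tables. The annotation types 100 of the variable genes as IG_V_gene and 60 as IG_V_pseudogene.

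RNA-seq was performed on sorted regulatory T cells (Tregs) in 14 libraries of 6 groups, to compare Tregs that lack JunB, a transcription factor of the AP-1 family, with Tregs that keep a functional allele. Peyer's patch (PP) Tregs came from adult male JunB F/+ Foxp3YFPcre (HET, n = 2) and JunB F/F Foxp3YFPcre (KO, n = 2) mice. CD25- PP Tregs (iHET, n = 2, and iKO, n = 2) and Tregs of the colonic lamina propria (iHET, n = 3, and iKO, n = 3) came from JunB F/+ or JunB F/F mice with the inducible Foxp3ERT2cre and the Rosa26-tdTomato reporter, in which number 1 of each group is male and numbers 2 and 3 are female. These mice received 3 doses of 8 mg tamoxifen by gavage on days 0, 1 and 3 and were used on day 7. Controls of both lines therefore also carry Cre and a floxed Junb allele, and Cre is driven by Foxp3, the gene that defines Tregs. The study reported that Foxp3-YFP-cre was also active outside Tregs, in other blood cell lineages. Whether other cells of the mice used here had lost Junb is not given in the labels. Cells of the inducible line were sorted as TCRb+CD4+Foxp3(EGFP)+tdTomato+, with a further CD25- gate in PP. The gate used for Foxp3-YFP-cre mice was narrower than all Tregs and is not given in full here. Nothing in the labels says which litters or days the mice came from, so p-values measure the spread between these libraries.

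Each library held between 26274861 and 35508709 counts, so that 3 counts, the limit that a count of 0 allows, correspond to between 0.0845 and 0.114 CPM, the unit of counts scaled to the same library total. Limits and intervals cover counting error only, since the reads carry no molecular identifiers. Junb was at 4561 to 7959 CPM in the control libraries and at 553 to 1015 CPM in the deleted libraries, with no overlap in any population. The 10 T cell and Treg genes of a fixed list, among them Cd3e, Cd4, Foxp3 and Ctla4, summed to between 6955 and 10678.5 CPM and none was at 0 in any library.

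The kappa light chain is the chain that pairs with an immunoglobulin heavy chain in most mouse antibodies. In a developing B cell a variable gene is joined to a joining gene by recombination of the DNA, and the joined exon is then spliced to Igkc in the transcript. A B cell and all of its descendants, including plasma cells that secrete antibody in the gut, usually keep the same joined gene, so cells of a clone share the variable gene read in their RNA. T cells rearrange their receptor genes and are not known for productive kappa transcripts. In bulk libraries such as these, fewer cells of a type cannot be told apart from less RNA per cell.

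The 3′ ends of the variable genes that the results turn on are shown because they carry the germline-encoded part of the third complementarity-determining region, a part of the antigen contact. These 12 sequences are the last 60 bases of the GENCODE M21 transcript (GRCm38, all on the minus strand of chromosome 6, printed 5′ to 3′ as transcribed) of the 11 genes that had the highest variable gene count in at least 1 library and of Igkv5-48. Capitals mark the last in-frame cysteine codon (TGT or TGC), which lies in the last 60 bases of all 100 genes typed as IG_V_gene.
Igkv10-96, chr6:68631963-68632022: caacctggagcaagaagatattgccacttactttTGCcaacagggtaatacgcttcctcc
Igkv5-48, chr6:69726573-69726632: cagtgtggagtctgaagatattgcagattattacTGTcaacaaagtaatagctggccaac
Igkv8-27, chr6:70171809-70171868: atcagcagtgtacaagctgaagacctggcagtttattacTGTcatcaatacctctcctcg
Igkv4-57, chr6:69575975-69576034: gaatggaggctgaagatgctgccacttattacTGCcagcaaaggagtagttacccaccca
Igkv4-72, chr6:69226854-69226913: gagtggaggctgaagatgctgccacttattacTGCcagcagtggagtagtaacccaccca
Igkv6-32, chr6:70074024-70074083: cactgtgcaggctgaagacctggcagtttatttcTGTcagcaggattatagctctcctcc
Igkv8-30, chr6:70117061-70117120: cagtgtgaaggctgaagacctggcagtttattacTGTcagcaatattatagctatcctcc
Igkv12-46, chr6:69764523-69764582: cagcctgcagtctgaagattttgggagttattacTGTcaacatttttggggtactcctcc
Igkv5-39, chr6:69900424-69900483: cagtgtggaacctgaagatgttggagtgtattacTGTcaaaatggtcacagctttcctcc
Igkv6-20, chr6:70335841-70335900: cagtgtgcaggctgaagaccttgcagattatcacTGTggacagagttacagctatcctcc
Igkv12-44, chr6:69814631-69814690: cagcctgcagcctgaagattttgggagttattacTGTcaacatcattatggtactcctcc
Igkv4-80, chr6:69016558-69016617: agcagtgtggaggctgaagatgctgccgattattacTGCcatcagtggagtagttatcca

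Between 18 and 25 bases follow the cysteine codon in these genes. Igkv8-27 had the fewest, 18 bases or 6 codons. Igkv4-57 and Igkv4-72 had 25, and among all 100 genes 94 different last 60 bases were found. The annotated transcript of Igkv8-27, the gene with the lowest p-value of the locus in PP Tregs, has 2 exons on the minus strand, of 49 bases (70172222 to 70172270) and 311 bases (70171809 to 70172119), all coding.

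The 5 joining genes lie on the plus strand between the variable genes and Igkc. Capitals mark the start of the phenylalanine-glycine motif that follows the third complementarity-determining region, searched on the sense strand as TTCGG. It was found in 4 of 5 joining genes, and in Igkj3, where it was not, the capitals mark the first TTC and the next bases.
Igkj1, chr6:70722562-70722599: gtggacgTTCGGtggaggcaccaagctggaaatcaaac
Igkj2, chr6:70722916-70722954: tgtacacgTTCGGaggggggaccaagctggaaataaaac
Igkj3, chr6:70723223-70723260: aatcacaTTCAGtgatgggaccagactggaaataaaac
Igkj4, chr6:70723548-70723585: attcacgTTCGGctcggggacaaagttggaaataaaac
Igkj5, chr6:70723886-70723923: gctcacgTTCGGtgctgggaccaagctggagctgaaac

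Kappa transcripts were counted in every library. Their total was lowest in CD25- PP Tregs of iHET mice, with 1732 and 2468 counts (61.7 and 93.1 CPM), and highest in colonic Tregs of iKO 1 with 18785 counts (582 CPM). CD25- PP Tregs of iKO mice had 245 and 115 CPM, both above both iHET libraries. PP Tregs of HET mice had 116 and 316 CPM, and those of KO mice 305 and 306 CPM, so the KO libraries lay inside the range of the HET libraries.

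Colonic Tregs spread most. The iHET libraries had 361, 167 and 559 CPM, a mean of 362 ± 196 (SD, n = 3), and the iKO libraries had 582, 380 and 93.8 CPM, a mean of 352 ± 245 (SD, n = 3). The ranges of both genotypes cover each other almost completely.

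**Figure D1:**
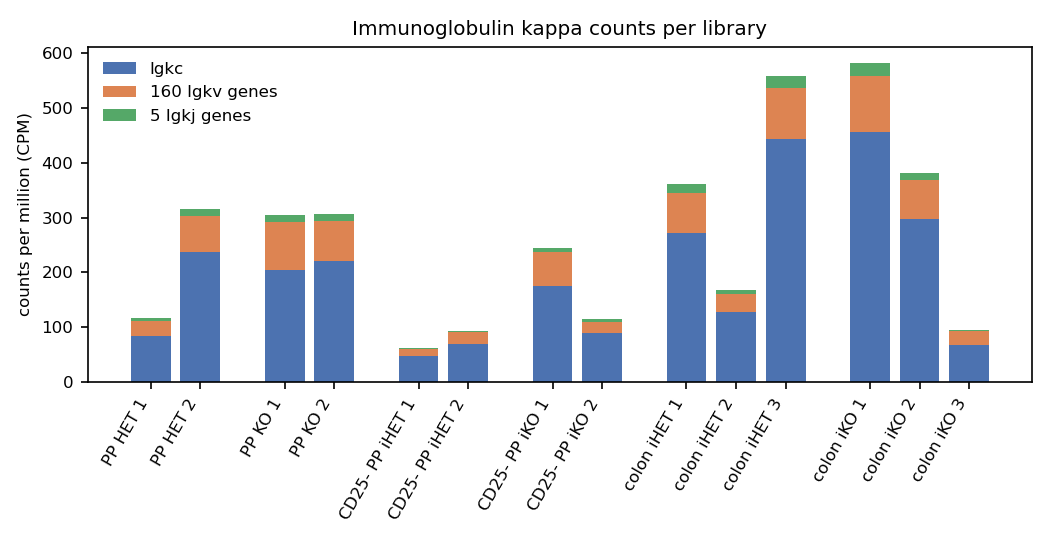
CPM of Igkc, of the 160 Igkv genes and of the 5 Igkj genes in each of the 14 libraries, stacked; each bar is 1 library. Colonic Tregs range from 93.8 to 582 CPM within iKO mice alone, while the 2 PP KO libraries are nearly equal at 305 and 306 CPM.

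Igkc, the constant gene at the 3′ end of the locus (ENSMUSG00000076609.2, bases 70726435 to 70726966, plus strand), took between 67.0% and 79.2% of the kappa counts of a library. The variable genes took between 16.7% and 28.5% and the joining genes between 1.70% and 4.64%. The split was thus much the same at low and high totals. Igkc itself ranged from 1339 counts in CD25- PP iHET 1 to 14704 counts in colonic iKO 1, and was over 100 counts in all 14 libraries.

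Few of the variable genes carried these counts. Of 160, 27 were at 0 in all 14 libraries, 22 of them pseudogenes, and 54 had under 3 counts in every library. Only 21 exceeded 100 counts in any library, of which 8 did so in exactly 1 library and 13 in 2 or more. The gene with at least 3 counts in every library was Igkv19-93 alone, and it stayed low, between 3 and 32 counts. A library had between 11 and 53 variable genes at 3 counts or more.

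The leading variable gene differed from library to library: 11 different genes had the highest count in the 14 libraries. They were the same when counts were divided by exon length, in 14 of 14 libraries. Within Foxp3-YFP-cre mice the leading gene was shared by the libraries of a genotype. Igkv10-96 led both HET libraries, with 163 counts, 4.64% of the kappa total (95% Wilson interval 4.00 to 5.39%), and 535 counts, 6.11% (5.62 to 6.63%). Igkv8-27 led both KO libraries, with 1172 counts, 13.7% of the kappa total (13.0 to 14.4%), and 902 counts, 10.8% (10.1 to 11.4%).

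In the inducible line no 2 libraries of a group shared their leading gene. CD25- PP Tregs of iHET mice were led by Igkv4-57, with 139 counts or 8.03% of the kappa total (6.84 to 9.40%), and Igkv4-72, with 182 counts or 7.37% (6.41 to 8.47%). Those of iKO mice were led by Igkv6-32, with 1186 counts or 15.2% (14.5 to 16.1%), and Igkv8-30, with 187 counts or 6.20% (5.39 to 7.12%). Igkv4-72 was at 0 in the other iHET library and Igkv8-30 had 2 counts in the other iKO library.

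Colonic Tregs of iHET mice were led by Igkv8-30, with 1839 counts or 17.2% of the kappa total (16.5 to 17.9%), Igkv12-46, with 624 counts or 10.5% (9.77 to 11.3%), and Igkv5-39, with 572 counts or 3.17% (2.92 to 3.43%). Those of iKO mice were led by Igkv6-20, with 2797 counts or 14.9% (14.4 to 15.4%), Igkv12-44, with 950 counts or 7.91% (7.44 to 8.41%), and Igkv4-80, with 235 counts or 7.84% (6.93 to 8.86%). Each of these 6 genes led a single colonic library.

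As a share of the variable gene counts alone, the leading gene took 84.7% in colonic iHET 1 and 84.3% in colonic iKO 1, and 19.0% in colonic iHET 3. Colonic iHET 3 held the second highest kappa total but divided it among Igkv5-39 with 572, Igkv4-68 with 552, Igkv12-44 with 488 and Igkv1-117 with 331 counts. A high total therefore went with a dominant gene in some colonic libraries and not in others.

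**Figure D2:**
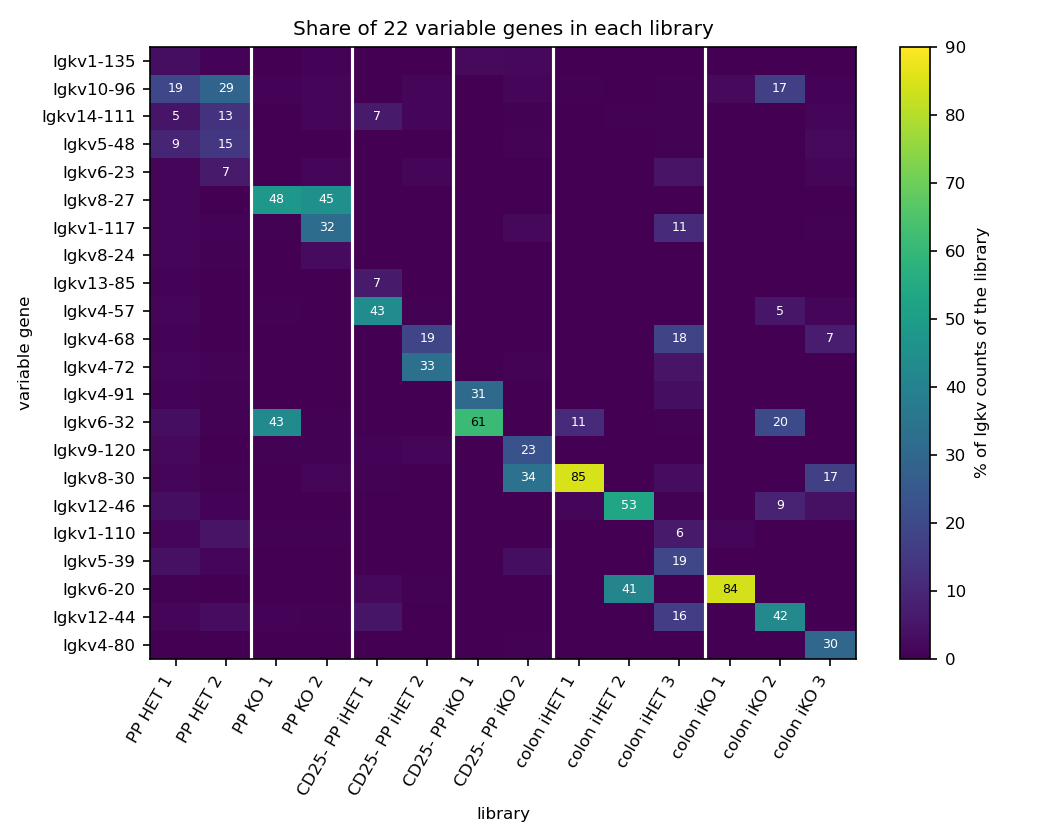
Share of the variable gene counts (in %, colour, printed where at least 5%) of 22 variable genes (rows) in each of the 14 libraries (columns, groups divided by white lines). Igkv8-27 stands out in both PP KO libraries with 48.1% and 45.1%, Igkv10-96 and Igkv5-48 in both PP HET libraries, and in the other groups the bright cells change from library to library.

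Most leading genes were abundant in 1 or a few libraries and near the floor in the rest. Igkv6-20 (ENSMUSG00000076587.3) had 2797 counts in colonic iKO 1, 479 in colonic iHET 2 and at most 6 in the other 12 libraries. Igkv8-30 (ENSMUSG00000076577.2) had 1839 counts in colonic iHET 1, 187 in CD25- PP iKO 2, 136 in colonic iKO 3 and 90 in colonic iHET 3. It did not exceed 26 counts elsewhere.

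Igkv6-32 (ENSMUSG00000076576.2) reached over 100 counts in 4 libraries of all 3 populations: 1052 in PP KO 1, 1186 in CD25- PP iKO 1, 241 in colonic iHET 1 and 451 in colonic iKO 2. It was at 0 in 6 of the 14 libraries. All of its 50-base stretches occur in no annotated transcript of another gene, whereas for Igkv6-20 this holds for 35.9%, so the counts of Igkv6-20 are uncertain to the extent that reads could be placed on near-identical copies or dropped. The same limit applies to other named genes, among them Igkv4-57 (49.2%), Igkv1-117 (50.1%), Igkv4-68 (51.3%), Igkv10-96 (67.4%) and Igkv12-44 (69.3%). Igkv12-44 (ENSMUSG00000096422.2) had 950 counts in colonic iKO 2, 488 in colonic iHET 3 and at most 54 elsewhere, and Igkv4-80 (ENSMUSG00000076540.3) had 235 in colonic iKO 3 and at most 7 elsewhere.

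The genes with the highest mean share of the kappa total followed the same pattern. In colonic iKO mice Igkv6-20 averaged 4.97% ± 8.59 (SD, n = 3), with a range from 0 to 14.9%, and in colonic iHET mice Igkv8-30 averaged 5.90% ± 9.78 (SD, n = 3). In both cases the SD exceeded the mean. Igkv8-27 in PP KO Tregs, at 12.2% ± 2.08 (SD, n = 2), and Igkv10-96 in PP HET Tregs, at 5.37% ± 1.03 (SD, n = 2), had an SD below the mean.

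The evenness of variable gene use was described by the inverse Simpson index, the number of equally abundant genes that would give the same concentration of counts. It was 16.4 and 7.52 in PP HET Tregs and 2.39 and 3.25 in PP KO Tregs. The PP HET libraries were thus the more even, and 53 variable genes reached 3 counts in each of them, against 23 and 33 in the KO libraries. The index was 4.88 and 6.56 in CD25- PP iHET, 2.12 and 5.71 in CD25- PP iKO, 1.37, 2.23 and 8.26 in colonic iHET and 1.39, 3.83 and 7.13 in colonic iKO Tregs. Both genotypes of the inducible line overlap in both organs.

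The 3 most abundant variable genes took 33.8% and 56.6% of the variable gene counts in PP HET Tregs and 92.2% and 79.7% in PP KO Tregs. In PP KO 1 these were Igkv8-27, Igkv6-32 (1052 counts) and Igkv10-96 (21 counts). In PP KO 2 they were Igkv8-27, Igkv1-117 (640 counts) and Igkv8-24 (52 counts). The second gene of each KO library was near the floor or low in the other, with 13 counts of Igkv6-32 in KO 2 and 13 counts of Igkv1-117 in KO 1.

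The overlap of variable gene use between 2 libraries was taken as the sum over genes of the smaller share of the Igkv counts. It was 60.01% between the PP HET libraries and 51.2% between the PP KO libraries. Across genotypes in PP it ranged from 7.61% to 22.4% (4 pairs). In CD25- PP Tregs the pairs of a group overlapped by 3.16% and 13.4%, and in colonic Tregs the 6 pairs of a group by 1.74% to 7.17%. Pairs of different genotype overlapped by 2.53% to 11.3% in CD25- PP Tregs (4 pairs) and by 1.27% to 42.0% in colonic Tregs (9 pairs, median 12.9%, against 2.96% within a group). In PP Tregs pairs of a group thus overlapped more than pairs of different genotype, and in colonic Tregs the median went the other way. Pairs of different populations ranged from 1.02% to 44.6% (64 pairs), with the highest between PP KO 1 and CD25- PP iKO 1, which share Igkv6-32. Pairs share libraries and are not independent, so these values are given without a test.

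Counts of the joining genes were low, 51 to 762 per library. The first 2 of the 5 joining genes took between 64.5% (PP HET 2) and 100% (CD25- PP iHET 2 and colonic iKO 3) of them. In colonic iHET 3 the leading joining gene took 72.8%, where the leading variable gene took 19.0% of the variable gene counts. Shares among 5 joining genes and among 160 variable genes are thus not on the same footing. A joining gene is 38 to 43 annotated bases long, shorter than a 50-base read, and reads that touch 2 genes were not counted. Igkj2 led in 6 libraries, Igkj1 in 5 and Igkj5 in 3. Igkj4 led in none, with at most 111 counts, and Igkj3 had between 0 and 2 counts in every library and 0 in 10 of 14. Igkj3 is the joining gene without TTCGG in the sequences shown.

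In the 2 libraries with the most dominant variable gene, the leading joining gene had a similar share. Igkj5 took 85.4% of the joining gene counts in colonic iHET 1 (379 of 444), where Igkv8-30 took 84.7% of the variable gene counts. Igkj5 also took 85.4% in colonic iKO 1 (651 of 762), where Igkv6-20 took 84.3%. In PP KO 1, Igkv8-27 and Igkv6-32 took 48.1% and 43.2% of the variable gene counts, and Igkj5 and Igkj2 had 192 and 180 of the 384 joining gene counts. PP KO 2 had 45.1% Igkv8-27 and 32.0% Igkv1-117 beside 47.5% Igkj2 and 44.8% Igkj1. Which variable gene was joined to which joining gene was not tested, since the counts do not link them.

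**Figure D3:**
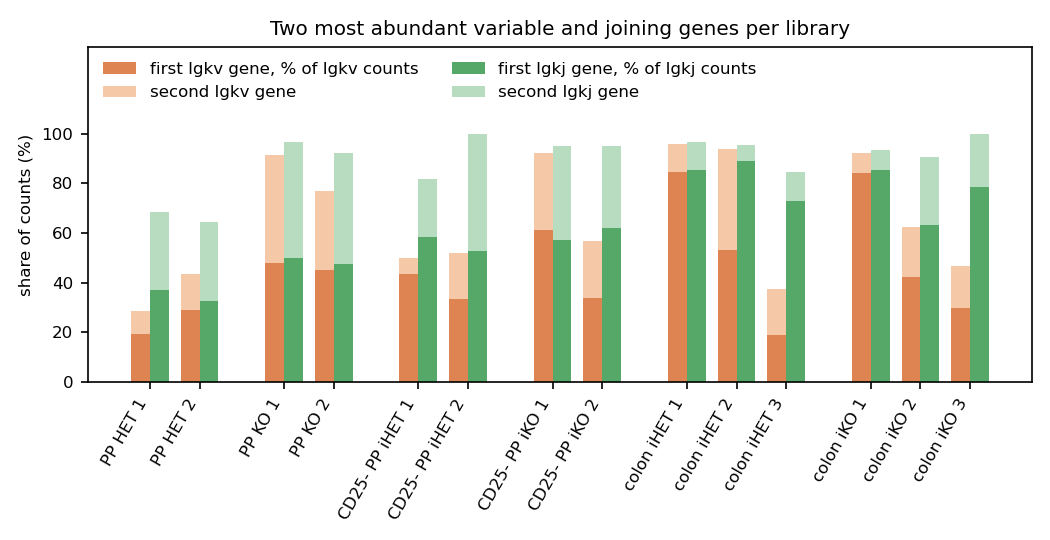
Share of the Igkv counts held by the first and second variable gene (left bar) and share of the Igkj counts held by the first and second joining gene (right bar) in each of the 14 libraries, in %. The stacked bars are closest in height in colonic iHET 1 (95.8% and 96.8%) and colonic iKO 1 (92.5% and 93.6%), and differ most in colonic iKO 3, where the first 2 variable genes took 46.8% and Igkj1 and Igkj5 took all joining gene counts.

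By position, genes within 1000 kb of Igkc make up 31.2% of the variable genes (50 of 160), and 40 of the 100 typed as IG_V_gene. The genes within 1000 kb took a median of 52.5% of the variable gene counts of a library, from 14.3% in CD25- PP iHET 1 to 97.0% in colonic iHET 1. Genes on the minus strand, 85 of 160, took between 61.7% and 98.4%. By family, Igkv4, the largest with 33 genes, took 51.4% and 64.8% in CD25- PP iHET Tregs and 55.2% in colonic iKO 3, and 0.121% in colonic iKO 1. The Igkv8 family of 12 genes took 48.6% and 50.1% in PP KO Tregs and 6.32% and 2.17% in PP HET Tregs.

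**Figure D4:**
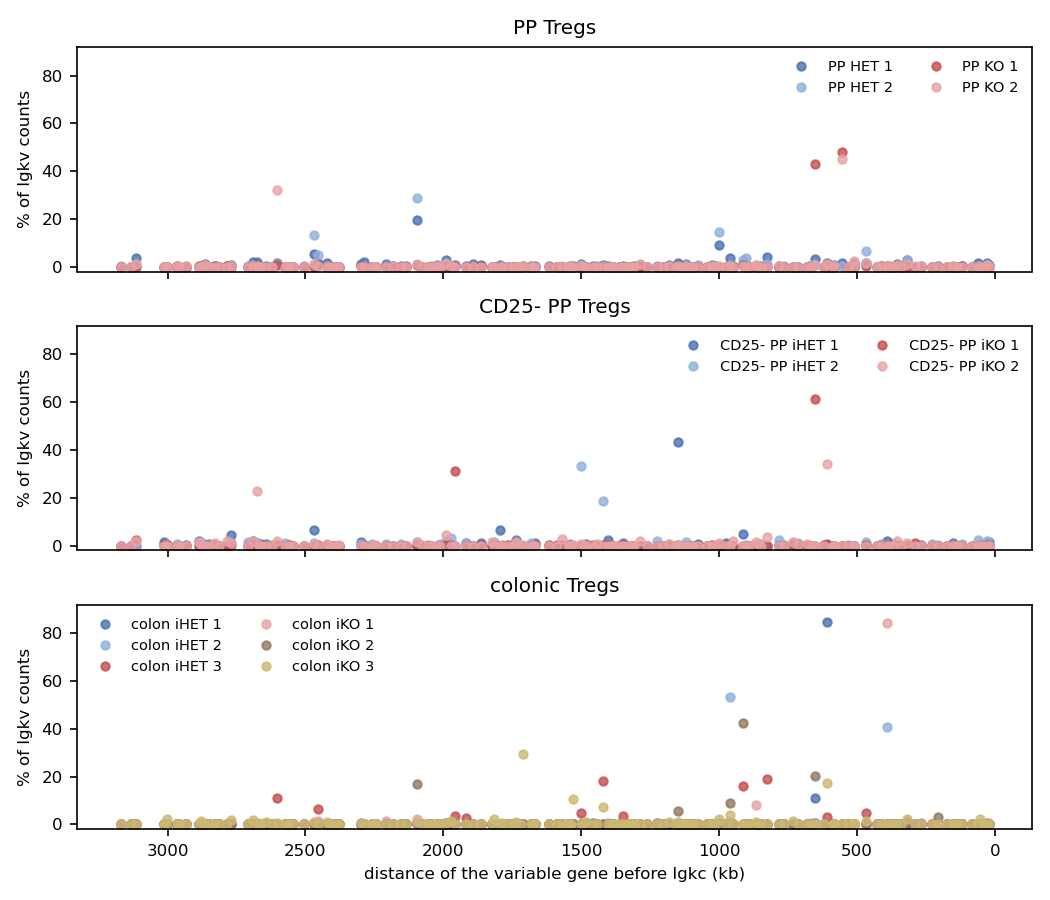
Share of the Igkv counts (in %) of each of the 160 variable genes against its distance before Igkc (in kb, nearest at the right), for the libraries of PP, CD25- PP and colonic Tregs. High points are scattered over the locus, and those above 80% in colonic iHET 1 and iKO 1 lie within 1000 kb of Igkc.

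Pseudogenes of the variable region held between 0% and 8.41% of the variable gene counts in 13 libraries and 13.4% (106 counts) in colonic iKO 3. Igkv4-73, named after its values were seen, gave 84 of these 106 counts. It had at most 6 counts in any other library.

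The comparison of KO with HET PP Tregs addresses what continued loss of JunB does to the Tregs of this organ. Single variable and joining genes differed between the genotypes in both directions, while Igkc did not pass the test. Only 9 of the 166 kappa genes had at least 1 CPM in at least 2 libraries and were tested, among 12224 genes. Of these 9, 4 passed the false discovery rate (FDR) of 0.05 in edgeR's quasi-likelihood test, 2 higher and 2 lower in KO Tregs, where 3.35% of all genes tested passed (0.99% higher and 2.36% lower). A kappa gene that is high in only 1 genotype enters the test through that genotype, so the share of the tested genes that passed is no measure of the locus. Igkv8-27, Igkv10-96 and Igkv5-48, which passed, reached 1 CPM in the libraries of 1 genotype only. The filter thus set their direction, and their p-values are no independent evidence of it. With the edgeR exact test that the study used, 4 of the 9 passed too, where 5.65% of all genes did.

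Igkv8-27 (ENSMUSG00000076580.3) had 13 and 6 counts in the HET libraries, against 1172 and 902 in the KO libraries. No overlap was seen: TMM-normalized levels averaged 0.319 ± 0.142 CPM in HET mice and 37.8 ± 6.08 CPM in KO mice (SD, n = 2 each). On the log2 scale this is a rise of 6.72 with a standard error of 0.278 (edgeR adjusted p = 4.7e-05). It was at 0 in 8 of the 10 libraries of the inducible line and at 1 and 8 counts in the other two, in colonic iHET 1 and iKO 1. In PP Tregs the gene reached 1 CPM only in the KO libraries, so it entered the test through them. Leaving out a HET library does not change that, and the log2 change was then 7.21 (without HET 1) or 6.37 (without HET 2). Without either KO library the gene was not tested, since fewer than 2 libraries then had 1 CPM. An earlier report of these data had named it, so its p-value is no independent evidence. Of its 50-base stretches, 91.6% occur in no annotated transcript of another gene.

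Igkj2 was the other gene that rose, from 26 and 44 counts with a functional allele to 180 and 174 counts without. The genotypes did not overlap, and the rise was 2.38 on the log2 scale with a standard error of 0.382 (edgeR adjusted p = 0.0162). The call was lost without HET 1 (adjusted p = 0.146) and without HET 2 (adjusted p = 0.0533).

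Igkv10-96 (ENSMUSG00000094420.2) went from 163 and 535 counts in HET mice to 21 and 26 in KO mice, a log2 change of -3.79 with a standard error of 0.617 (edgeR adjusted p = 0.0167). Igkv5-48 (ENSMUSG00000076563.2) fell from 78 and 268 counts in HET mice to 0 and 2 in KO mice (edgeR adjusted p = 0.0130). With 2 counts left in KO Tregs, the ratio of the summed counts of HET over KO per library size was 165, with an exact 95% counting interval of 45.4 to 1371. The ratio was 268 (73.4 to 2224) without HET 1 and 71.4 (19.1 to 599.96) without HET 2. Neither gene overlapped between the genotypes of PP Tregs, and both reached 1 CPM in the HET libraries only and entered the test through them.

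When either HET library was left out, Igkv10-96, Igkv5-48 and Igkv14-111 had fewer than 2 libraries at 1 CPM and were not tested. Igkv14-111 (ENSMUSG00000095771.2), at 43 and 243 counts in HET mice but 0 and 22 in KO mice, did not pass the test with all libraries (log2 fold change -3.55, edgeR adjusted p = 0.183). It passed without KO 2 (edgeR adjusted p = 0.0404). Igkj1 passed there as well (edgeR adjusted p = 0.0292), where 3 counts of KO 1 stood against 52 and 114 in HET libraries.

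The remaining 4 genes tested overlapped between the genotypes and did not pass. Igkc had 2531 and 6565 counts in HET mice, on either side of the 5735 and 6016 counts in KO mice, and differed by 0.42 on the log2 scale with a standard error of 0.386 (edgeR adjusted p = 0.748). Its direction rested on HET 1: the value was -0.16 without HET 1 and 1.39 without HET 2 (edgeR adjusted p = 0.7001 and 0.0173). Igkv6-23, Igkj1 and Igkj5 had adjusted p-values of 0.564, 0.989 and 0.840 in the same test.

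**Figure D5:**
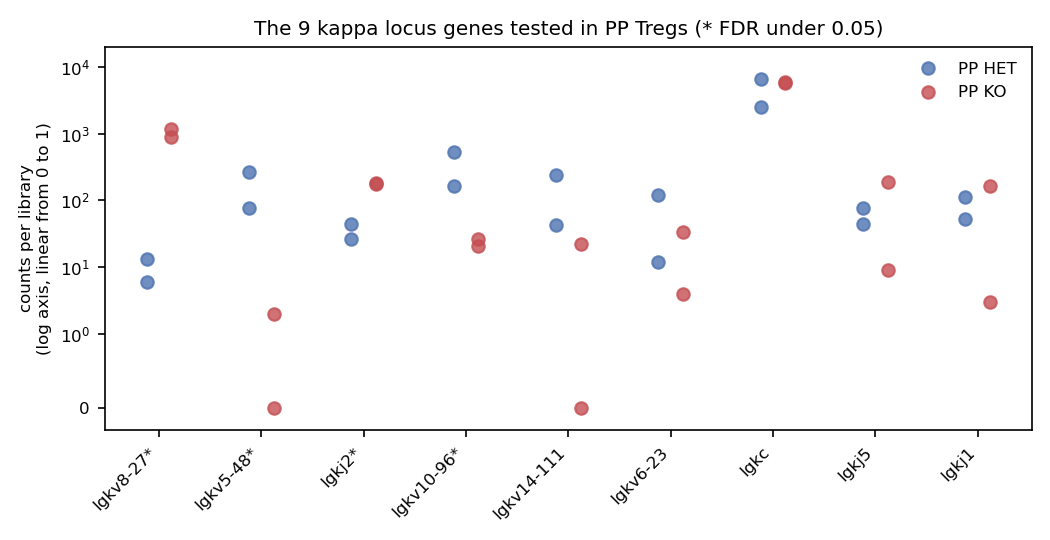
Counts of the 9 kappa locus genes tested in PP Tregs in the 2 HET and 2 KO libraries (log axis, linear between 0 and 1), ordered by p-value. Each point is 1 library and the asterisk marks an edgeR FDR under 0.05. The HET and KO points are apart for the first 5 genes, of which Igkv14-111 did not pass, and overlap for the other 4. With 2 libraries per genotype points can lie apart by chance. The share of all genes whose points lie apart was not computed, so this count is no result about the locus.

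The summed level of the B cell markers was lower in both KO libraries than in both HET libraries of PP Tregs, although few of them passed the test. The 12 B cell genes of a fixed list summed to 242 and 272 CPM in HET mice, against 129 and 197 CPM in KO mice. Of them 1 passed the test, Cr2, which was lower, and the median log2 fold change was -0.85, against 0.00 over all genes tested. Of 5 plasma cell genes tested Pou2af1 and Sdc1 passed, both lower, and of 5 germinal centre B cell genes none did. Jchain, Mzb1 and Derl3 of the plasma cell list did not pass (edgeR adjusted p = 0.933, 0.865 and 0.436). Over all genes tested 3.35% passed, 2.36% as lower, and lists this short cannot be weighed against that share. Ighm, the constant gene of IgM, was the most abundant immunoglobulin gene listed in all 8 PP libraries, with 69835 and 50761 counts in HET mice, against 47396 and 53768 in KO mice. Lambda light chain genes were at 10.3 and 15.4 CPM in HET mice, against 5.84 and 104 CPM in KO mice. Their part in the kappa results was not tested.

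In CD25- PP Tregs, the short deletion asks which transcripts change soon after JunB is lost. Kappa counts were higher in both iKO than in both iHET libraries, but no kappa gene passed the test. Of 166 genes 3 were tested and 0 passed in edgeR's quasi-likelihood test, as did 0 (0%) of all 17079 genes, of which 618 had an unadjusted p under 0.05. In the edgeR exact test 0 of the 3 passed, where 0.263% of all genes did, and in DESeq2 35 genes passed. Igkc had 1339 and 1846 counts in iHET and 5578 and 2326 counts in iKO libraries, a difference of 1.20 on the log2 scale with a standard error of 0.338 (edgeR unadjusted p = 0.0109, adjusted p = 0.999). Igkj2 had 42 and 0 counts in iHET and 151 and 87 in iKO libraries, and Igkj4 had 2 and 36 counts in iHET and 100 and 46 in iKO libraries. Neither of these passed in edgeR. The iKO libraries lay above the iHET libraries for all 3 genes. The share of all genes that separate in this way was not computed, so this is no result about the locus. The log2 change of Igkj2 was 6.86 when iHET 1 was left out, which leaves iHET 2 with 0 counts as the only control.

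No variable gene had 1 CPM in 2 of these 4 libraries. The B cell list summed to 113 and 123 CPM in iHET and 122 and 159 CPM in iKO libraries, and none of its 12 genes passed. Igha, the constant gene of IgA, had 1513 and 842 counts in iHET and 3721 and 24 counts in iKO libraries, so CD25- PP iKO 2 had kappa counts with little Igha. Jchain, which joins IgA and IgM into polymers, had 139 and 129 counts in iHET libraries, below the 682 and 412 counts in iKO libraries, and did not pass (edgeR unadjusted p = 0.000177, adjusted p = 0.720). The part of these genes in the kappa values was not tested.

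In colonic Tregs no kappa gene passed the test between genotypes, and the libraries of each genotype spread widely. Of 6 kappa genes tested 0 passed, with 1 of 16313 genes (0.00613%) past the FDR of 0.05 in the fit with the mouse number as a term for cage and 632 at an unadjusted p under 0.05. In the likelihood ratio test that the study used, 0 of the 6 passed, where 0.153% of all genes did, and in DESeq2 42 genes passed. Igkc had 8080, 4549 and 14292 counts in iHET and 14704, 9386 and 2152 counts in iKO libraries, a difference of -0.17 on the log2 scale with a standard error of 0.845 (edgeR adjusted p = 0.993). Its direction turned to 0.93 when iHET 3 or iKO 3 was left out (edgeR adjusted p = 0.202 and 0.137). With the mouse number as a term both fits lose the same pair, so they are not separate checks. Igkv8-30 had 1839, 1 and 90 counts in iHET and 1, 0 and 136 counts in iKO libraries. Igkv12-46 had 23, 624 and 19 counts in iHET and 1, 201 and 32 counts in iKO libraries. The genotypes overlap for all 3 genes.

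Between organs of the inducible line, Igkc, Igkj5 and Igkv12-46 were higher in the colon. The contrast of colonic with CD25- PP Tregs, averaged over genotypes, tested 16 of the 166 genes. Of these 3 passed, all higher in colonic Tregs, where 17.3% of 18626 genes tested passed (10% higher and 7.29% lower). Igkv12-46 and Igkj5 reached 1 CPM in colonic libraries only, so they entered the test through the colon. Their direction was thus set by the filter, and the share of kappa genes that passed is no measure of the locus. The organs were also sorted with different gates, so organ and gate cannot be told apart, and this contrast uses the same libraries as the comparisons of genotype.

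Igkc averaged 54.9 ± 12.6 CPM (SD, n = 2) and 127 ± 60.004 CPM (SD, n = 2) in CD25- PP Tregs of iHET and iKO mice, and 297 ± 166 CPM (SD, n = 3) and 279 ± 197 CPM (SD, n = 3) in colonic Tregs. The rise was 1.78 on the log2 scale with a standard error of 0.517 (edgeR adjusted p = 0.0407). Colonic iKO 3 lay within the range of the CD25- PP libraries. Igkj5 had 17, 0, 3 and 4 counts in CD25- PP and 379, 14, 88, 651, 32 and 11 counts in colonic libraries, which overlap, with a log2 fold change of 4.86 (edgeR adjusted p = 0.0492).

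Igkv12-46 (ENSMUSG00000076564.2) had 0, 0, 2 and 0 counts in CD25- PP and 23, 624, 19, 1, 201 and 32 counts in colonic libraries (edgeR adjusted p = 0.0339). The ratio of the summed counts of colonic over CD25- PP Tregs per library size was 262, with an exact 95% counting interval of 72.4 to 2168. Colonic iHET 2 gave 624 of the 900 colonic counts, and without it the ratio was 98.5 (27.0 to 817). Both CD25- PP counts came from iKO 1. These 3 calls depended on single libraries: 0 kappa genes passed when any 1 of the 4 CD25- PP libraries or colonic iKO 2 was left out. With 1 of the other 5 colonic libraries left out, between 1 and 3 passed. For Igkc the adjusted p ranged from 0.00915 to 0.150 over the 10 fits with 1 library left out and was 0.0850 with the mouse number as a block.

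Genes of the plasma cell, heavy chain and B cell lists went in different directions between the organs. Of 4 plasma cell genes tested, Jchain and Sdc1 passed the same test as higher in colonic Tregs and Pou2af1, a coactivator of transcription in B cells, passed as lower. Jchain had 129 to 682 counts in CD25- PP and 337 to 2771 counts in colonic libraries. Sdc1 was highest in colonic iKO 3 with 1836 counts, the library with the lowest colonic Jchain count. Pou2af1 had 1252 to 1395 counts in CD25- PP libraries, where Mzb1 had 4 to 17. Whether Sdc1 and Pou2af1 counts came from antibody-secreting cells was not tested. Ighm passed as lower, with 24728 to 32114 counts in CD25- PP and 5940 to 10544 counts in colonic libraries. Of 12 B cell genes, Pax5 and Cd22 passed, both lower in colonic Tregs, a share near the 17.3% of all genes tested. Igha had 24 to 3721 counts in CD25- PP and 2563 to 30725 counts in colonic libraries and did not pass (edgeR adjusted p = 0.0520). Mzb1, a chaperone of antibody-secreting cells, had at most 17 counts in the inducible line, and Tnfrsf17, their survival receptor, at most 23 in any library. Their part in the kappa results was not tested.

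The difference of the genotype effects between organs was tested as an interaction over the same 10 libraries. Of 16 kappa genes 0 passed, as did 0 (0%) of 18626 genes, with 4 of the 16 and 622 of all genes at an unadjusted p under 0.05 in edgeR and 2 genes past the FDR in DESeq2. For Igkc the interaction was -1.30 on the log2 scale with a standard error of 0.974 (edgeR adjusted p = 1.00).

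Other immunoglobulin loci also varied between libraries. The leading heavy chain variable gene (Ighv) took between 12.6% and 70.4% of the Ighv counts of a library, with 70.4% for Ighv1-19 in colonic iKO 1 and 56.5% for Ighv1-53 in PP KO 1. Lambda light chain genes were at 41 to 759 counts in 12 libraries, at 8558 counts in colonic iHET 1 and at 2836 counts in PP KO 2. The recombinase genes were low: Rag2 was at 0 in 12 of 14 libraries and had at most 4 counts, and Rag1 had at most 21 counts.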

How the data were processed

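RNA-seq of sorted mouse Tregs was analysed from raw counts per gene, deposited as one table per mouse line. Per the labels and methods, the authors prepared cDNA with a low-input SMARTer kit, trimmed reads with TrimGalore and CutAdapt, aligned them with STAR to mm10 (uniquely mapped reads kept) and counted them with featureCounts and GENCODE annotation, without strand and without reads that overlap 2 genes. The deposited counts are whole numbers and are not normalized. Of paired reads of the inducible line only the forward read of 50 bases was used.

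Symbols, coordinates and sequences came from GENCODE M21 (GRCm38), in which 53706 of 53801 and 55394 of 55487 gene IDs matched. Genes with at least 1 CPM in as many libraries as the smallest group were tested with edgeR 4.0.16 (TMM, glmQLFit and glmQLFTest, prior count 1) and Benjamini-Hochberg adjustment over all genes tested at an FDR of 0.05. The tests were run within each table, since the lines were sequenced on different instruments. The colonic fit held the mouse number as a block, since the methods fitted cage and pair an iHET with an iKO mouse per cage. That the number marks the cage is not given in the labels. The correlation of deviations of same-numbered colonic libraries was 0.0724, 0.299 and -0.0822. Alternatives were the tests of the study, DESeq2 1.42.0, its size factors, no filter, a prior count of 0.125, the block and leaving out each library. Scripts were tested on simulated data. Depth ranged from 26274861 to 35508709 counts per library.

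The kappa genes and the gene lists were chosen with earlier results of these data known. Named genes are Igkc, the variable gene of highest count in each library, the 5 variable genes of highest mean share in each group, the genes past the FDR and Igkv8-27. The ratios of summed counts carry exact 95% intervals, and shares 95% Wilson intervals. The share of 50-base stretches found in no other gene was computed from the annotated exons.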

Additional observations from a re-analysis of the deposited data

How the results depend on the processing

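Counts of kappa genes past an FDR of 0.05 depended mostly on the filter and on single libraries. Without a filter on low counts, 14 kappa genes of 108 tested passed in PP, 10 of 113 in CD25- PP, 2 of 95 in colonic Tregs, 18 of 131 between organs and 12 of 131 for the interaction, where 1305 of all 30707 genes, 232 of 42641, 24 of 39730, 4762 of 44972 and 282 of 44972 passed in the same order. The ratio of summed Igkv5-48 and Igkv12-46 counts without single libraries was added after seeing the data. With 1 library left out, the kappa genes past the FDR numbered 1 to 5 in PP, 0 to 1 in CD25- PP, 0 in colonic Tregs, 0 to 3 between organs and 0 for the interaction, and all genes 36 to 390, 2 to 77, 0 to 5, 1581 to 3959 and 0. The edgeR exact test gave 691 genes in PP and 45 in CD25- PP, the likelihood ratio test 25 in colonic Tregs, and DESeq2 696, 35 and 42 genes in these comparisons and 2 for the interaction; the kappa counts were the same as with edgeR's quasi-likelihood test in all 3 comparisons of genotype. The replicate block gave 1015 genes and 5 of 9 kappa genes in PP, where same-numbered libraries correlated at 0.112, added Igkv14-111, and gave 2 higher and 1 lower kappa gene between organs. It changed no kappa call in CD25- PP, where the numbers correlated at 0.0973, and leaving it out changed none in colonic Tregs. With 1 library left out, the log2 change of Igkc ranged from -0.16 to 1.39 in PP and from -1.06 to 0.93 in colonic Tregs. It turned sign in PP without HET 1 (-0.16) and in colonic Tregs without iHET 3 or iKO 3 (0.93 in both). These 2 colonic fits lose the same pair, since the mouse number is a block. The cause of the turns was not tested.

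With TMM normalization the mean kappa total of PP KO libraries was 309 CPM. With the Igkv counts as denominator, the leading gene took on average 24.2% in PP HET, 46.6% in PP KO, 38.3% in CD25- PP iHET, 47.6% in CD25- PP iKO, 52.3% in colonic iHET and 52.1% in colonic iKO Tregs. Without the 11 leading genes, the inverse Simpson index averaged 10.4 in PP KO, 13.5 in CD25- PP iHET and 9.60 in colonic iHET Tregs. With 321 to 3319 variable gene counts per library, genes of small share were near the limit of 3 counts.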
